A study of Mus musculus with 12 samples.

Results

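The genes described here carry calcium out of and back into the sarcoplasmic reticulum of the muscle fiber. They are Ryr1, Cacna1s, Trdn and Jph1 on the release side, Casq1 and Casq2 in the store, and Atp2a1, Atp2a2, Sln and Pvalb on the side of reuptake and buffering. They were chosen by name, as the rows of the expression table that carry these symbols, and they make up 10 of its 17752 genes. All 10 passed the filter on low values, a mean of at least 0.5 FPKM (fragments per kilobase of transcript, scaled by depth) over the 12 libraries.

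The libraries were made from the extensor digitorum longus (EDL) of male mice, a hind limb muscle made up mostly of fast fibers, with 3 libraries in each of 4 groups. The genotypes are labelled WT and strNrip1-/-. In strNrip1-/- mice a muscle creatine kinase promoter drives Cre, which deletes floxed Nrip1 in heart and skeletal muscle, and the WT mice are littermates that carry the floxed allele without Cre. Nrip1 encodes RIP140, a corepressor of nuclear receptors. Mice of each genotype were kept sedentary or given running wheels from 8 weeks of age for 8 weeks, with the wheels taken away before the muscle was collected, and trained mice that ran little were left out by the study. The labels do not say that each library is a separate mouse, so the p-values measure the spread between these libraries only.

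The targeted gene went against the genotype labels. Nrip1 was at 3.60, 2.55 and 3.84 FPKM in the sedentary libraries labelled WT and at 15.5, 16.3 and 14.9 FPKM in the sedentary libraries labelled strNrip1-/-. It was at 2.53, 4.76 and 3.56 FPKM in the trained libraries labelled WT and at 20.7, 14.9 and 16.6 FPKM in the trained libraries labelled strNrip1-/-. Thus every library labelled strNrip1-/- was above every library labelled WT, with log2 fold changes of 2.08 and 2.14. The design deletes exon 4, which holds the whole coding sequence, and a gene-level value does not show which exons the fragments came from. For this reason a direction between genotypes is given throughout as between libraries labelled strNrip1-/- and libraries labelled WT.

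In a muscle fiber, an action potential in the transverse tubule moves the voltage sensor Cav1.1, which opens the ryanodine receptor of the facing reticulum, and the released calcium starts contraction. Calsequestrin holds calcium in the lumen of the reticulum close to the release channel. SERCA pumps return calcium to the reticulum, and parvalbumin binds it in the cytosol, which speeds relaxation of fast fibers. Fast fibers use mainly SERCA1 and calsequestrin 1, whereas slow fibers and heart use SERCA2 and make more calsequestrin 2.

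The members were ordered by level, which FPKM gives per length of transcript. Pvalb was the sixth and Atp2a1 the eighth most abundant nuclear gene of 17739, at means of 13367 and 12817 FPKM over the 12 libraries. Their ranges overlapped, with 10207 to 17645 FPKM for Pvalb and 11096 to 14341 FPKM for Atp2a1. Casq1 followed at 1657 FPKM, below both in every library, and Trdn at 738 FPKM, below Casq1 in every library. Trdn overlapped in range with Ryr1, at 379 FPKM, and Ryr1 with Cacna1s, at 257 FPKM. Jph1 stood clear of both neighbours at 108 FPKM. The slow isoforms came last, with Atp2a2 at 15.96 FPKM and Casq2 at 13.8 FPKM in overlapping ranges, and Sln at 2.42 FPKM below them all.

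All 8 markers of fast fibers and all 6 general markers of skeletal muscle were present, and Myh4, the myosin heavy chain of the fastest fibers, ranged from 6582 to 10783 FPKM. Myh7, the slow myosin heavy chain, was at 1.07 to 5.74 FPKM in 9 libraries and at 19.4 to 49.99 FPKM in the other 3, which are labelled WT sedentary replicate 2, labelled strNrip1-/- sedentary replicate 1 and labelled WT trained replicate 2. The depth was 20.1 to 29.2 M fragments per library, as estimated from the spacing of low values. The library labelled strNrip1-/- sedentary replicate 2 stood apart in another way, as its log2 levels of transcripts over 5000 nt relative to those under 1500 nt were -0.41, against -0.20 to 0.20 in the other 11. For several genes, values that moved with these libraries are given with and without them, beside the gene or in the closing section.

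**Figure D1:**
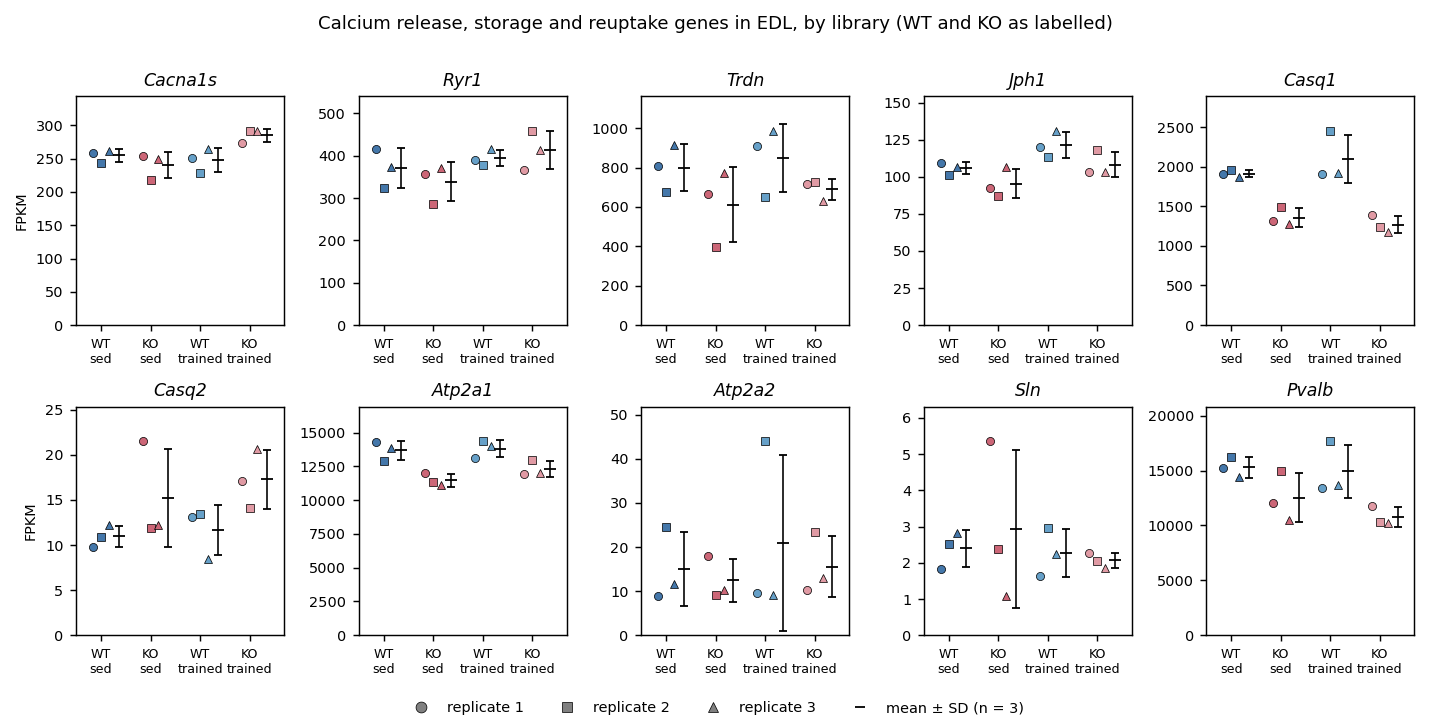
FPKM (y axis, from 0, a scale for each gene) of the 10 genes in the 12 libraries, grouped by labelled genotype (WT, KO for strNrip1-/-) and training; symbols give replicates 1 to 3 and bars the mean ± SD of 3 libraries. Casq1 lies between 1180 and 1491 FPKM in the 6 libraries labelled KO and between 1864 and 2446 FPKM in the 6 labelled WT, and Atp2a2 reaches 43.9 FPKM in a single library.

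Among the 10 genes, the labelled genotypes differed past the threshold in a gene of the store. Casq1, which encodes calsequestrin 1, the main calcium store protein of fast fibers, occupies 172209894 to 172219868 of chromosome 1 (minus strand, GRCm38). In sedentary mice it was at 1907, 1958 and 1864 FPKM in the libraries labelled WT and at 1310, 1491 and 1271 FPKM in those labelled strNrip1-/-. In trained mice it was at 1911, 2446 and 1924 FPKM in the libraries labelled WT and at 1387, 1237 and 1180 FPKM in those labelled strNrip1-/-. All 6 libraries labelled strNrip1-/- were below all 6 labelled WT. In whole muscle, fewer fibers of a type and less RNA per fiber cannot be told apart.

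The means of Casq1 were 1910 ± 46.8 and 1357 ± 117 FPKM in sedentary mice labelled WT and strNrip1-/- (SD, n = 3 in every group). They were 2094 ± 305 and 1268 ± 107 FPKM in the trained mice. The log2 fold change between the labelled genotypes was -0.50 (SE 0.11) in sedentary mice, with an adjusted p of 0.0297 by limma, and -0.72 (SE 0.11) in trained mice, with an adjusted p of 0.00377. On the linear scale these correspond to -29.1% and -39.2%. The interaction, which is the change of this difference with training, was -0.22 with an interval of -0.56 to 0.11 and an adjusted p of 0.744, so a difference between the 2 was not shown.

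The members differed in how far they stood from the threshold, and Casq1 was the only one called in either comparison between labelled genotypes, a call being an adjusted p under 0.05 with a fold above 1.2. That is 1 of 10, against 3.51% of all 12744 genes tested in sedentary mice (1.92% higher and 1.59% lower) and 5.98% in trained mice (3.21% higher and 2.77% lower). The median log2 fold change of the 10 was -0.17 in sedentary mice, where 8 were negative, and -0.13 in trained mice, where 7 were negative. Over all genes tested the medians were -0.0010 and 0.0066. In sedentary mice the Casq1 call was lost when any of 5 single libraries was left out. The adjusted p was then 0.103, 0.1003 and 0.0825 without the labelled WT sedentary replicates 1, 2 and 3, and 0.0974 and 0.0800 without the labelled strNrip1-/- sedentary replicates 1 and 3. It was also lost, at 0.120, without the 3 libraries rich in Myh7, and at 0.0720 with the other groups kept out of the fit, while the log2 fold change was between -0.51 and -0.45 in these fits. Without labelled strNrip1-/- sedentary replicate 2, the library with low levels of long transcripts, the sedentary call was kept, at -0.56. In trained mice the call was kept in all 12 fits with a library left out, and without the 3 libraries it stood at -0.60 with an adjusted p of 0.0245.

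Some markers of fast fibers were lower in the same libraries as Casq1, with 2 of 8 called lower in both comparisons. Actn3, the alpha-actinin of fast fibers, was at -0.90 (adjusted p = 0.000252) and -0.75 (adjusted p = 0.000817), and Mybpc2, fast myosin-binding protein C, at -0.56 and -0.50. The other 6 were not called, among them the fast myosin heavy chain Myh1, the only one with positive values, at 0.22 (adjusted p = 0.632) and 0.38 (adjusted p = 0.243). The summed level of the list was 93819 to 106834 FPKM in sedentary libraries labelled WT and 70629 to 98159 FPKM in sedentary libraries labelled strNrip1-/-. In trained mice it was 93103 to 111137 FPKM and 81827 to 84991 FPKM. Of the 6 general muscle markers, myoglobin, Mb, was the only one called, and was higher, at 0.86 (adjusted p = 0.0314) and 0.76 (adjusted p = 0.0390). The other 5 had values of -0.41 for Acta1 to -0.020 for Des in sedentary mice and of -0.35 for Acta1 to 0.25 for Des in trained mice. The list summed to 62594 to 70128 FPKM in sedentary libraries labelled WT and 48896 to 66685 FPKM in those labelled strNrip1-/-, and in trained mice to 63022 to 76852 FPKM and 59598 to 60876 FPKM. The share of summed FPKM in mitochondrial transcripts was 51.2% to 52.8% in sedentary libraries labelled strNrip1-/- and 42.2% to 47.3% in the other 9. Of the 7 lists of other cell types, Tie1 of endothelium, at 0.42 (adjusted p = 0.0125) in trained mice, was the only marker called. Adipocyte markers summed to 4.58 to 8.26 FPKM in sedentary libraries labelled WT and to 10.4 to 33.99 FPKM in those labelled strNrip1-/-. In trained mice the ranges overlapped, at 7.39 to 21.5 FPKM and 9.01 to 23.0 FPKM. Endothelium markers summed to 64.4 to 69.5 FPKM and 70.2 to 82.5 FPKM in sedentary mice. In trained mice they summed to 63.9 to 74.5 FPKM and 82.4 to 84.8 FPKM. Sums of the remaining lists are not given here. The part of these marker genes in the values of Casq1 was not tested.

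Casq2, the calsequestrin of slow fibers and heart, occupies 102086415 to 102146514 of chromosome 3 (plus strand). It was at 9.80, 10.8 and 12.2 FPKM in sedentary libraries labelled WT and at 21.5, 11.9 and 12.2 FPKM in sedentary libraries labelled strNrip1-/-. It was at 13.1, 13.4 and 8.47 FPKM in trained libraries labelled WT and at 17.1, 14.1 and 20.6 FPKM in trained libraries labelled strNrip1-/-. The groups overlapped in sedentary mice and did not in trained mice. The log2 fold changes of 0.41 (SE 0.24) and 0.56 (SE 0.24) did not pass the test, with adjusted p of 0.450 and 0.201. The sedentary value was 0.14 without labelled strNrip1-/- sedentary replicate 1, the highest library, and 0.13 without the 3 libraries rich in Myh7, to which it belongs. The trained value was 0.35 without labelled WT trained replicate 3, the lowest library, and 0.67 without the 3 libraries.

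Set against each other within a library, Casq2 made up 0.511%, 0.551% and 0.649% of the summed FPKM of both calsequestrins in sedentary libraries labelled WT and 1.61%, 0.792% and 0.950% in sedentary libraries labelled strNrip1-/-. In trained mice it made up 0.679%, 0.545% and 0.438% in labelled WT libraries and 1.22%, 1.12% and 1.72% in labelled strNrip1-/- libraries. The share was higher in all 6 libraries labelled strNrip1-/- than in all 6 labelled WT, and stayed under 2% in each. Casq1 made up nearly all of each sum and was itself lower in these 6 libraries, which raises the share whatever Casq2 does. The share is thus not a result on Casq2 separate from that on Casq1, and it was chosen after seeing the data. In both comparisons the exact two-sided permutation test gave p = 0.10, the smallest that 3 against 3 allows, or 0.40 after adjustment over 8 such tests.

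The sequences ahead of the calsequestrin genes are shown because Casq1 is the member that was called and Casq2 encodes the other calsequestrin. Each is the 250 bases before the RefSeq start (GRCm38.p6), 5′ to 3′ on the strand of the gene, at chr1:172219896-172220145 on the minus strand for Casq1 and at chr3:102086165-102086414 on the plus strand for Casq2. Capitals mark E-boxes, CANNTG, the motif of the MyoD family.
Casq1: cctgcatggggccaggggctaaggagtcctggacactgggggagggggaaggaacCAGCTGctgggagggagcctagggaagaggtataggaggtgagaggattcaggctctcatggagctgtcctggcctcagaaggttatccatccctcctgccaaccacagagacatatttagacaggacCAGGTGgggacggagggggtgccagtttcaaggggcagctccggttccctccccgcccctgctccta
Casq2: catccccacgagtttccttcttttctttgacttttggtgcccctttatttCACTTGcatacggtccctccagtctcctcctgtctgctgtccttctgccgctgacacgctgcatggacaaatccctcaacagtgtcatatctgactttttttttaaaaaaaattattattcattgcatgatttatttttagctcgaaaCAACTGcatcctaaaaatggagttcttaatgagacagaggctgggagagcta
Both windows hold 2 E-boxes, which begin 195 and 67 bases before the start in Casq1 and 200 and 52 bases before it in Casq2. An E-box occurs in 66.2% of all 32851 windows of this length. Neither window holds AGGTCA, the half-site of many nuclear receptors, on either strand, which occurs in 14.0% of all windows. The letters G and C make up 61.6% of the Casq1 window and 41.6% of the Casq2 window.

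No gene of the release machinery was called between the labelled genotypes. Cacna1s, which encodes the Cav1.1 voltage sensor, occupies 136052750 to 136119822 of chromosome 1 (plus strand). It was at 259, 244 and 262 FPKM in sedentary libraries labelled WT and at 254, 218 and 249.8 FPKM in sedentary libraries labelled strNrip1-/-. After training it was at 251, 228 and 264 FPKM in labelled WT libraries and at 274, 291 and 291 FPKM in labelled strNrip1-/- libraries. The trained libraries labelled strNrip1-/- were thus above all 9 other libraries.

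None of these differences of Cacna1s passed the test. The log2 fold change between labelled genotypes was -0.085 (SE 0.078, adjusted p = 0.687) in sedentary mice and 0.20 (SE 0.078, adjusted p = 0.155) in trained mice. The interaction of 0.29 (interval 0.048 to 0.53) was the only one among the members with an unadjusted limma p under 0.05, at 0.0229, and its adjusted p was 0.611. With each library left out in turn the interaction stayed between 0.22 and 0.34.

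Ryr1, which encodes the release channel of skeletal muscle, occupies 29003344 to 29125179 of chromosome 7 (minus strand). It averaged 371 ± 46.9 FPKM in sedentary mice labelled WT, 338 ± 45.9 FPKM in sedentary mice labelled strNrip1-/-, 395 ± 18.5 FPKM in trained mice labelled WT and 413 ± 45.4 FPKM in trained mice labelled strNrip1-/-. The groups overlapped in both comparisons, with log2 fold changes of -0.13 (SE 0.12) and 0.061 (SE 0.12). The second of these turned to -0.056 under quantile normalization.

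Trdn encodes triadin, which anchors calsequestrin to the release channel, and occupies 33080554 to 33476709 of chromosome 10 (plus strand). It was the most variable of the release genes, from 399 FPKM in labelled strNrip1-/- sedentary replicate 2 to 984 FPKM in labelled WT trained replicate 3. The log2 fold change was -0.43 (SE 0.23, adjusted p = 0.396) in sedentary mice and -0.28 (SE 0.23, adjusted p = 0.538) in trained mice. Jph1, at 16964560 to 17097889 of chromosome 1 (minus strand), encodes junctophilin 1, which holds the reticulum to the transverse tubule. Its values spanned 87.2 to 131 FPKM, and its log2 fold changes were -0.15 (SE 0.089) and -0.17 (SE 0.089), with adjusted p of 0.461 and 0.324.

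The 4 release genes have transcripts of up to 4514 to 15358 nt, and in each of them the lowest of the 12 values was that of labelled strNrip1-/- sedentary replicate 2, the library with low levels of long transcripts. Without that library the log2 fold changes in sedentary mice were -0.016 for Cacna1s, -0.018 for Ryr1, -0.15 for Trdn and -0.088 for Jph1. The part of transcript length in these values was not tested. Each of the 4 overlaps annotated antisense genes that are not analysed here, as does Casq1, and the libraries do not keep strand. The span of Trdn also holds the processed pseudogenes Gm47845 and Gm20304, at 3.75 and 1.83 FPKM.

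On the reuptake side, Atp2a1, which encodes the SERCA1 pump of fast fibers, occupies 126445858 to 126463108 of chromosome 7 (minus strand). It was at 14273, 12902 and 13851 FPKM in sedentary libraries labelled WT and at 11996, 11321 and 11096 FPKM in sedentary libraries labelled strNrip1-/-. It was at 13087, 14341 and 13992 FPKM in trained libraries labelled WT and at 11946, 13000.4 and 12005 FPKM in trained libraries labelled strNrip1-/-. Within each activity, every library labelled strNrip1-/- was below every library labelled WT, yet the differences were small. The log2 fold changes were -0.25 (SE 0.092, adjusted p = 0.184) and -0.16 (SE 0.092, adjusted p = 0.344), and neither was called. The second turned to 0.032 under quantile normalization, and the first was called, at -0.41 with an adjusted p of 0.0252, when the libraries were rescaled to the same sum, which also moved the median of all genes to -0.14. The gene overlaps Rabep2, which runs on the opposite strand and averaged 51.2 FPKM, and the libraries do not keep strand.

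Pvalb, which encodes parvalbumin, occupies 78191114 to 78206400 of chromosome 15 (minus strand). It was at 15257, 16230 and 14371 FPKM in sedentary libraries labelled WT and at 12083, 14932 and 10519 FPKM in sedentary libraries labelled strNrip1-/-, which overlap. It was at 13381, 17645 and 13705 FPKM in trained libraries labelled WT and at 11791, 10285 and 10207 FPKM in trained libraries labelled strNrip1-/-, which do not overlap. The log2 fold changes were -0.30 (SE 0.15, adjusted p = 0.355) in sedentary mice and -0.46 (SE 0.15, adjusted p = 0.0973) in trained mice. The sedentary overlap came from labelled strNrip1-/- sedentary replicate 2, the library with low levels of long transcripts. Without it the sedentary value was -0.44 and was not called. Pvalb transcripts are up to 977 nt, and the part of transcript length was not tested.

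The trained difference of Pvalb passed the test in some of the other fits. It was called, at -0.40 with an adjusted p of 0.0118, with libraries rescaled to the same sum, and at -0.42 with an adjusted p of 0.00773 with libraries rescaled by nuclear genes. It was also called, at an adjusted p of 0.0495, without labelled strNrip1-/- sedentary replicate 2, a library that enters this difference only through the shared estimate of spread. In sedentary mice it was called only with libraries rescaled to the same sum, at -0.46 with an adjusted p of 0.00711.

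The windows ahead of the genes for the pump and the buffer are shown because they are the most abundant members. Atp2a1 is at chr7:126463074-126463323 and Pvalb at chr15:78206401-78206650, both on the minus strand, with E-boxes and AGGTCA in capitals.
Atp2a1: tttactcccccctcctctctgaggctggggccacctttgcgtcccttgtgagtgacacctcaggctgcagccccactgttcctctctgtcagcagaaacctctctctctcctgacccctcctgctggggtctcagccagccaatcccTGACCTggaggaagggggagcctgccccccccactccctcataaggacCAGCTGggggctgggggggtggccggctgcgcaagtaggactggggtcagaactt
Pvalb: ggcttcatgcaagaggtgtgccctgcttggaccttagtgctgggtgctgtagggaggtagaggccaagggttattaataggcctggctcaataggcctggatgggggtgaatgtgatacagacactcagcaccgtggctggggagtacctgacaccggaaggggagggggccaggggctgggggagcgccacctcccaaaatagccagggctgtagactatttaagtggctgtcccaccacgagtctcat
The Atp2a1 window holds AGGTCA on the other strand, written TGACCT here, beginning 103 bases before the start, and 1 E-box beginning 55 bases before it. The Pvalb window holds neither motif, and RefSeq lists another Pvalb start with its own window, at chr15:78204238-78204487, which holds 1 E-box. The Cacna1s window holds 2 E-boxes and the Ryr1 window none. Windows were found for 6 of the 10 members, and those of Atp2a2, Sln, Trdn and Jph1 were not used here.

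Atp2a2, which encodes the SERCA2 pump of slow fibers and heart, occupies 122453513 to 122502225 of chromosome 5 (minus strand), and it followed single libraries rather than groups. It was at 8.88, 24.5 and 11.6 FPKM in sedentary libraries labelled WT and at 18.0, 9.16 and 10.3 FPKM in sedentary libraries labelled strNrip1-/-. It was at 9.49, 43.9 and 9.12 FPKM in trained libraries labelled WT and at 10.2, 23.3 and 13.0 FPKM in trained libraries labelled strNrip1-/-. Within each group a single library was well above the other 2. The log2 fold changes of -0.19 and -0.10 had an SE of 0.57, several times their size, and intervals of -1.45 to 1.07 and -1.36 to 1.16.

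The libraries high in Atp2a2 were mostly those high in several slow-fiber genes. Myl2 and Mybpc1 of the slow-fiber list did not follow the 3 libraries rich in Myh7. Myl2 was at 87.4 FPKM in labelled WT sedentary replicate 2, below 97.5 FPKM in labelled strNrip1-/- sedentary replicate 2. Mybpc1 was at 918 FPKM in labelled strNrip1-/- sedentary replicate 1, below 1050 FPKM in labelled WT trained replicate 1. The 3 libraries with Myh7 at 19.4 to 49.99 FPKM had Atp2a2 at 18.0 to 43.9 FPKM, Tnnt1 (slow troponin T) at 64.2 to 127 FPKM and Tnni1 (slow troponin I) at 15.5 to 30.3 FPKM. The other 9 had Atp2a2 at 8.88 to 23.3 FPKM, Tnnt1 at 18.9 to 43.9 FPKM and Tnni1 at 2.47 to 5.13 FPKM. The highest of these 9 for Atp2a2 was labelled strNrip1-/- trained replicate 2, which was also their highest for Myh7 at 5.74 FPKM. Without the 3 libraries the log2 fold change of Atp2a2 was -0.064 in place of -0.19 in sedentary mice and 0.62 in place of -0.10 in trained mice. The slow-fiber list as a whole had 8 of 8 markers present. It summed to 1005 to 1432 FPKM in sedentary mice labelled WT and 980.2 to 1333 FPKM in sedentary mice labelled strNrip1-/-. In trained mice it summed to 1204 to 1867 FPKM in libraries labelled WT and 1127 to 1268 FPKM in those labelled strNrip1-/-. Most of each sum came from Mybpc1, at 775 to 1189 FPKM over the 12 libraries. None of the 8 markers was called. The part of these genes in the values of Atp2a2 was not tested.

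The SERCA2 share remained very small throughout. Atp2a2 made up 0.0622% to 0.305% of the summed FPKM of both pumps over the 12 libraries. Its means were 0.112% and 0.108% in sedentary mice labelled WT and strNrip1-/- and 0.148% and 0.124% in the trained mice, with exact two-sided permutation p of 0.90 and 1.0.

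Sln encodes sarcolipin, a small membrane protein that inhibits SERCA pumps, and occupies 53850164 to 53854560 of chromosome 9 (plus strand). It was at 1.84, 2.53 and 2.82 FPKM in sedentary mice labelled WT, 5.35, 2.37 and 1.095 FPKM in sedentary mice labelled strNrip1-/-, 1.64, 2.95 and 2.23 FPKM in trained mice labelled WT and 2.27, 2.06 and 1.86 FPKM in trained libraries labelled strNrip1-/-. An estimated 28 to 119 fragments stood behind each value. Its highest library, labelled strNrip1-/- sedentary replicate 1, was among the 3 libraries rich in Myh7. The log2 fold changes of 0.064 and -0.090 had an SE of 0.37, and the first turned to -0.38 without those 3 libraries.

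**Figure D2:**
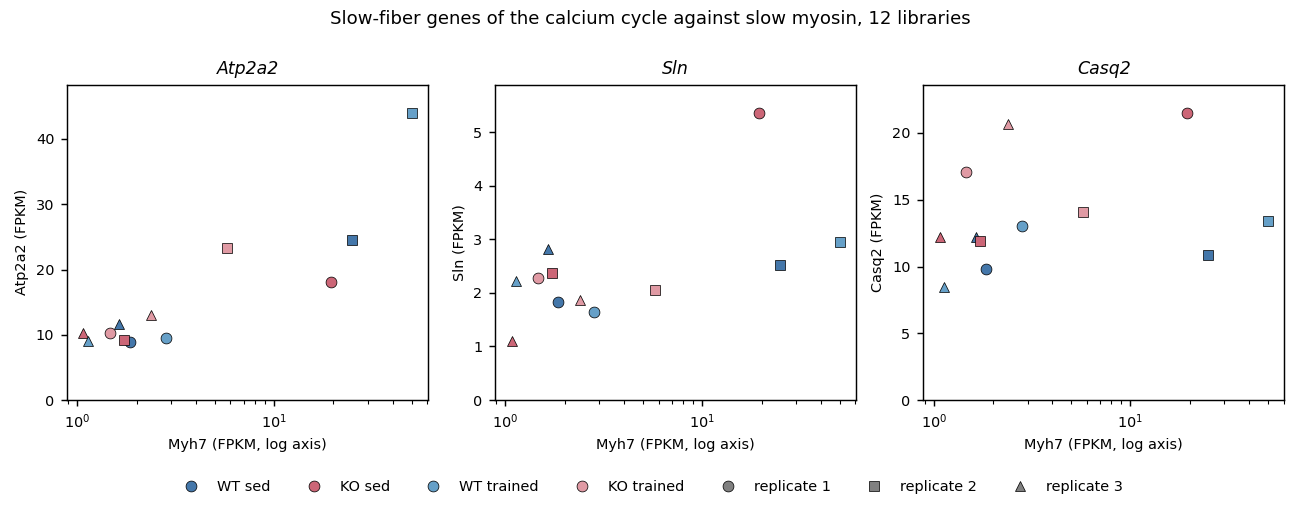
FPKM of Atp2a2, Sln and Casq2 (y axes, from 0) against FPKM of Myh7, the slow myosin heavy chain (x axis, logarithmic), with a point for each of the 12 libraries, colored by labelled group and shaped by replicate. Atp2a2 rises along the x axis to 43.9 FPKM, whereas Casq2 is at 10.8 to 21.5 FPKM in the 3 libraries richest in Myh7 and at 8.47 to 20.6 FPKM in the other 9.

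None of the 10 genes was called for training within a labelled genotype. The background was 0% of all genes called in labelled WT and 0% in labelled strNrip1-/- mice by limma, although 1061 and 1544 genes had an unadjusted p under 0.05. In labelled WT mice the log2 fold changes of the members ran from -0.073 for Sln to 0.20 for Jph1, with 0.20 for Atp2a2, 0.12 for Casq1, 0.097 for Ryr1, 0.075 for Trdn, 0.064 for Casq2, 0.014 for Atp2a1, -0.042 for Cacna1s and -0.046 for Pvalb. Jph1 was at 109, 101 and 107 FPKM in sedentary and at 120, 113 and 131 FPKM in trained libraries, and its adjusted p was 0.589.

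In labelled strNrip1-/- mice the values were 0.29 for Ryr1, 0.28 for Atp2a2, 0.25 for Cacna1s, 0.22 for Trdn, 0.22 for Casq2, 0.18 for Jph1, 0.10 for Atp2a1, -0.098 for Casq1, -0.21 for Pvalb and -0.23 for Sln. The 4 release genes all had positive values here. The smallest adjusted p was that of Cacna1s, at 0.269, followed by Ryr1 at 0.379. Without labelled strNrip1-/- sedentary replicate 2 the 4 values were 0.18 for Cacna1s, 0.18 for Ryr1, 0.12 for Jph1 and -0.058 for Trdn. The medians of the 10 genes were 0.070 in labelled WT and 0.20 in labelled strNrip1-/- mice, against 0.0017 and 0.0090 over all genes tested.

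No member had a called interaction of labelled genotype and training, nor did any gene of the table (0% called, with 989 at an unadjusted p under 0.05). The interactions of the members other than Casq1 and Cacna1s were 0.20 for Ryr1, 0.15 for Trdn, 0.15 for Casq2, 0.088 for Atp2a1, 0.083 for Atp2a2, -0.015 for Jph1, -0.15 for Sln and -0.16 for Pvalb. The comparisons share libraries with each other, so their values are given side by side only.

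**Figure D3:**
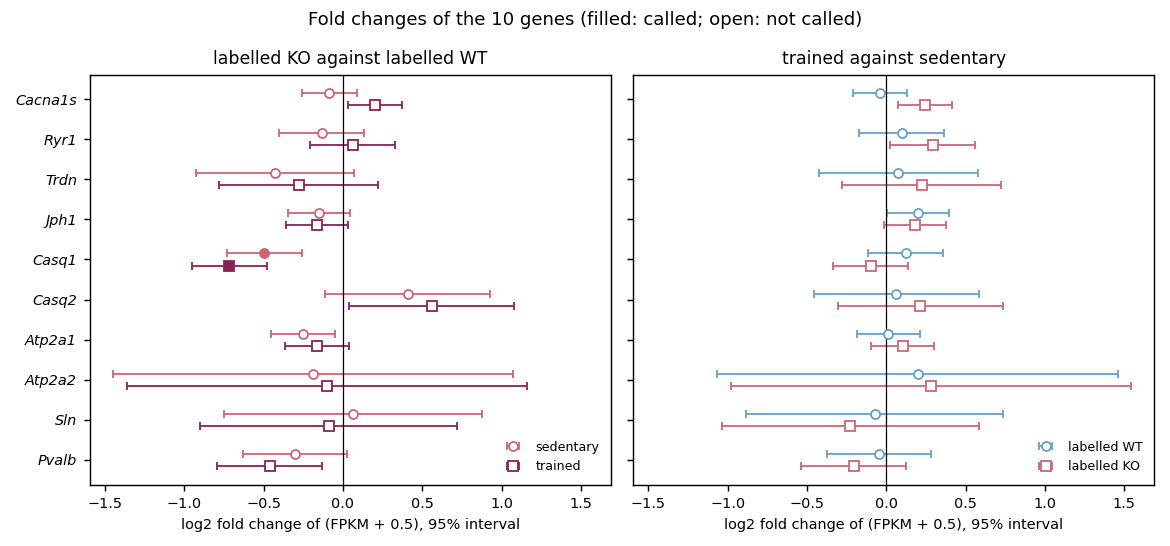
Log2 fold change of FPKM + 0.5 (x axis) with its 95% interval for each of the 10 genes, between labelled genotypes (left, sedentary and trained) and between trained and sedentary mice (right, by labelled genotype); filled symbols passed the test and open ones did not. The filled symbols are those of Casq1, at -0.50 and -0.72, and the widest intervals are those of Atp2a2 and Sln.

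Other genes of calcium handling were taken from 7 lists of 70 genes, of which 67 were in the table and 58 passed the filter. Between the labelled genotypes 8 of the 58 were called in sedentary mice, 1 higher and 7 lower, which is 13.8% beside the background of 3.51%. In trained mice 13 were called, 2 higher and 11 lower, which is 22.4% beside 5.98%. Most of the 58 averaged over 5 FPKM. When only genes averaging at least 5 FPKM were fitted, the background share was higher, at 484 of 6849 genes in sedentary and 784 in trained mice. The counts of the 58 come from the fit of all genes tested, not from that one. The lists were chosen with earlier results of these data known, so these shares are a description only. The median log2 fold change of the 58 was -0.13 in sedentary and -0.075 in trained mice. None was called for training in either labelled genotype or for the interaction.

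The junction list, which holds the partners of the voltage sensor and release channel, had 4 of 14 genes lower in sedentary and 5 of 14 lower in trained mice, and none higher. Jph2, a second junctophilin, averaged 303 ± 7.11 FPKM in sedentary mice labelled WT and 207 ± 3.65 FPKM in sedentary mice labelled strNrip1-/-. Its log2 fold change was -0.55 (SE 0.065, adjusted p = 0.00116) there and -0.41 (SE 0.065, adjusted p = 0.00451) in trained mice. Asph, whose gene also encodes the triadin relative junctin, fell by 0.28 in sedentary and by 0.68 in trained mice on the log2 scale, the latter with an adjusted p of 0.000172. These values sum all products of the Asph gene.

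The auxiliary subunits of the voltage sensor were called lower in 1 or both comparisons, whereas Cacna1s was called in neither. Cacng1, the gamma subunit, had log2 fold changes of -0.46 (adjusted p = 0.0291) in sedentary and -0.49 (adjusted p = 0.0163) in trained mice. Cacnb1, the beta subunit, was called in sedentary mice at -0.29 (adjusted p = 0.0364), from 106 ± 4.05 to 86.3 ± 4.38 FPKM, and this call was kept in 3 of 12 fits with a library left out. That of Cacng1 was kept in 8 of 12 in each comparison. Cacna2d1, the alpha2delta subunit, was called in trained mice at -0.34 (adjusted p = 0.0125), from 38.8 ± 0.792 to 30.6 ± 1.83 FPKM. Tmem38b, a potassium channel of the reticulum that balances charge during release, was called in trained mice at -0.38 (adjusted p = 0.0125). In sedentary mice it was at -0.16 (adjusted p = 0.294). It averaged 23.1 FPKM, whereas Tmem38a, the other Tmem38 gene of the list, averaged 891 FPKM. Tmem38a was not called, at -0.20 (adjusted p = 0.329) in sedentary and 0.0024 (adjusted p = 0.992) in trained mice.

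Of the list of calcium-binding proteins, Calm2, a calmodulin gene, was lower in both, at -0.48 (adjusted p = 0.0341) and -0.45 (adjusted p = 0.0316), and 1 of 6 genes tested was called in each. With a library left out the Calm2 call was kept in 5 of 12 fits in sedentary and 8 of 12 in trained mice. Of the regulators of the pump, 0 of 6 were called in sedentary and 2 of 6 in trained mice by limma. These were Mrln, the pump inhibitor myoregulin, at -0.56 (adjusted p = 0.0202), and Ank1, whose small product binds the reticulum to the myofibril, at -0.32 (adjusted p = 0.0232). In sedentary mice Mrln was at -0.44 (adjusted p = 0.0747) and Ank1 at -0.11 (adjusted p = 0.518). Mrln averaged 118 ± 5.39 FPKM in trained mice labelled WT and 80.2 ± 5.87 FPKM in trained mice labelled strNrip1-/-.

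Among 8 genes of surface entry and extrusion, the calcium sensor Stim1 was higher in sedentary mice at 0.28 (adjusted p = 0.0494), from 90.7 ± 4.16 to 110 ± 6.94 FPKM, and the sodium-calcium exchanger Slc8a3 was lower at -0.39 (adjusted p = 0.0426). Neither was called in trained mice. There Stim1 averaged 100 FPKM in libraries labelled WT and 119 FPKM in those labelled strNrip1-/-, without overlap. Slc8a3 averaged 28.1 and 27.8 FPKM, in overlapping ranges. The Stim1 call was kept in 1 of 12 fits with a library left out, and that of Slc8a3 in 2 of 12.

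None of the 10 genes of the mitochondrial list was called lower. Slc8b1, the mitochondrial sodium-calcium exchanger, was higher in trained mice, at 0.54 (adjusted p = 0.0402), a call kept in 4 of 12 fits with a library left out. In sedentary mice none of the 10 was called, and 7 had positive values. None of 4 genes of inositol trisphosphate signaling was called.

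Of 10 kinases, phosphatases and effectors that read the calcium signal, 1 was lower in sedentary and 3 in trained mice. Camk2a, a calmodulin-dependent kinase, was at -0.45 (adjusted p = 0.0210) and -0.61 (adjusted p = 0.00355). Ppp3cb and Ppp3r1, a catalytic and the regulatory subunit of calcineurin, were called in trained mice at -0.36 (adjusted p = 0.00679) and -0.42 (adjusted p = 0.00167). In sedentary mice they were at -0.16 (adjusted p = 0.200) and -0.22 (adjusted p = 0.0545). Ppp3r1 averaged 70.3 ± 2.22 FPKM in trained mice labelled WT and 52.6 ± 1.75 FPKM in trained mice labelled strNrip1-/-.

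Of the 21 calls of pathway genes, those of Jph2 in both activities and of Asph, Camk2a, Ppp3cb and Ppp3r1 in trained mice were kept in every fit with a library left out. Those of Cacna2d1 and Tmem38b were kept in 10 of 12, those of Mrln and Ank1 in 8 of 12, and in sedentary mice those of Camk2a in 9 and of Asph in 7 of 12. Without the 3 libraries rich in Myh7 the calls of Jph2 and Slc8a3 in sedentary mice and of Jph2, Asph, Camk2a, Ppp3cb and Ppp3r1 in trained mice were kept, and the other 14 were lost. With a single library left out the count called ran from 1 to 8 in sedentary and from 5 to 14 in trained mice, and without the 3 libraries rich in Myh7 it was 2 and 6.

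**Figure D4:**
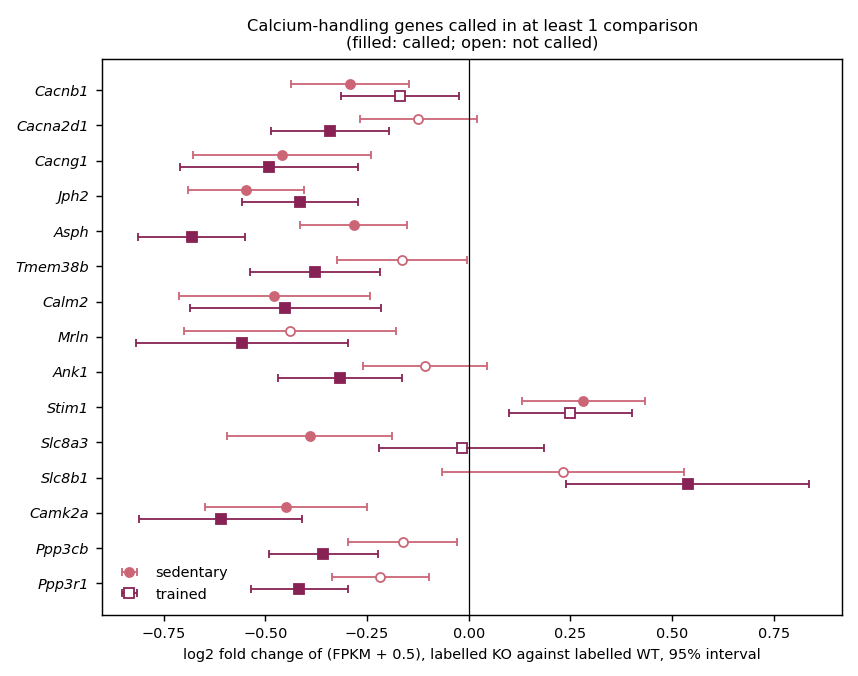
Log2 fold change of FPKM + 0.5 between labelled strNrip1-/- and labelled WT mice (x axis, 95% intervals) for 15 of the 16 genes of the calcium lists called in sedentary (circles) or trained mice (squares); filled symbols passed the test. Of those plotted, Stim1 and Slc8b1 lie on the right of 0 and the others on the left, down to -0.68 for Asph in trained mice.

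The genes whose pattern over the 12 libraries was most like that of each member were named from the 6840 genes that averaged 5 FPKM or more, by Pearson's r of log2 levels. For Casq1 they were Ube2e1 (r = 0.992), the fast myosin light chain Myl1 (r = 0.983) and the glycolytic enzyme Tpi1 (r = 0.971). For Pvalb they were Gm1821 (r = 0.978), Eno3 (r = 0.964) and Tpi1 (r = 0.964), where Eno3 is the muscle enolase. For Atp2a1 the first was Cacnb1 (r = 0.944), followed by Pxn and Abcf2. Atp2a2 was most like Tnnt1 (r = 0.956), Myh7 (r = 0.916) and Myl3 (r = 0.873), all of slow fibers.

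For Sln they were the myosin light chain Myl10 (r = 0.914), Arl6ip5 and Mier1. The release genes had other neighbours, with Mypn, Arnt and Tsc1 for Ryr1 (r = 0.965, 0.938 and 0.933), Alkbh5, Myoz3 and Gsk3b for Trdn, Limd1, Usp13 and Fam120a for Jph1, and Inafm1, Ube4b and Ano8 for Cacna1s. Casq2 was most like Hmg20b, Cox18 and Ncapd2, at r of 0.893 or less. These correlations share the libraries, their depth and their 4 groups, and are given as a description.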

How the data were processed

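RNA-seq of EDL muscle was analysed in 12 libraries of 4 groups, taken from the sample labels. The authors quantified transcripts with Salmon 1.10.2 against mm10 and summed them to genes with tximport, and they deposited FPKM per gene and library. The function that gave FPKM and the annotation release are not given in the sources used here. Their 8 columns of log2 fold changes and adjusted p-values, made with DESeq2 1.44.0, were not used. The kit does not keep strand, and reads carry no molecular identifiers, so fragment estimates cover counting error only. Depth was estimated from 1613 genes with 1 transcript over 1500 nt, where 99.1% to 99.6% of values fell within 0.15 of whole fragments, and 3 fragments on a 2 kb gene were 0.0515 to 0.0748 FPKM.

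Values were tested as log2(FPKM + 0.5), which understates changes of low genes, in 12744 genes that averaged 0.5 FPKM or more. A limma 3.58.1 model (R 4.3.3) with 4 group means and a trended prior gave two-sided tests with Benjamini-Hochberg adjustment over all genes. It was tested on simulated data first. Called genes had an adjusted p under 0.05 and a fold above 1.2, and the interaction used the adjusted p alone. Intervals are 95%. Coordinates are 1-based on GRCm38 from GENCODE M21. The members and lists were chosen with earlier results of these data known. Named genes are the members in every comparison, pathway genes called in at least 1, and the 3 genes most like each member. Tmem38a is named only to set it beside Tmem38b. Of the pathway genes called, 1 enters the counts but is not reported here. Isoform shares, the libraries rich in Myh7 (over 10 FPKM) and their omission were chosen after seeing the data. Motifs were searched on both strands of windows from RefSeq.

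Alternatives were pseudocounts of 0.1 and 1, no filter or a mean of at least 5 FPKM, 3 scalings, fits of only the 2 groups compared, a replicate block, and each library left out.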

Additional observations from a re-analysis of the deposited data

How the results depend on the processing

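The sign and the side of the threshold of the values named were unchanged in 1382 of 1590 recomputations, while 146 lost a call, 5 gained one and 57 changed sign. Casq1 in trained mice kept its call under every alternative run. Reversed signs concerned values of members that were themselves not called.

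With libraries rescaled to the same sum, the median of all genes moved by -0.14 in sedentary mice and the share of higher genes among all called genes went from 54.8% to 18.6%, and in trained mice from 53.7% to 80.9%. Rescaling by nuclear genes gave 82.7% and 75.8%. The same-sum setting called 3 members and 16 pathway genes in sedentary mice, 2 and 8 in trained mice, and 3 pathway genes for training in labelled strNrip1-/- mice. The nuclear setting kept the call of Casq1 and called 4 pathway genes in sedentary mice, and called 2 members and 6 pathway genes in trained mice. With only the 2 groups compared, 0 members and 1 pathway gene were called in sedentary mice, where fewer libraries estimate the spread. Without the 3 libraries rich in Myh7, 0 and 2 were called in sedentary mice and 6 pathway genes in trained mice. The cause of the other shifts was not tested. The whole table had 447 called genes in sedentary and 762 in trained mice, against 166 and 445 with only the 2 groups compared, 143 and 398 without the 3 libraries, and as few as 163 and 315 with a library left out. For training in labelled strNrip1-/- mice 150 genes were called with the same sum in place of 0. At a mean of at least 5 FPKM, Sln and Slc8b1 could not be fitted, nor the interaction with only 2 groups.

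Values that changed sign with the same sum were Sln in sedentary mice (-0.068), Atp2a1 for training in labelled WT mice (-0.030), Casq1 for training in labelled strNrip1-/- mice (0.078), and the interactions of Jph1 (0.20), Sln (0.032) and Pvalb (0.061). With quantile normalization they were Ryr1 (-0.056) and Atp2a1 (0.032) in trained mice and Cacna1s for training in labelled WT mice (0.00087). Without the 3 libraries they were Sln (-0.38) in sedentary mice, Atp2a2 (0.62) and Sln (0.080) in trained mice, Casq2 (-0.051), Atp2a1 (-0.055) and Atp2a2 (-0.12) for training in labelled WT mice, and Sln for training in labelled strNrip1-/- mice (0.26) and for the interaction (0.46).

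With a library left out in turn, 0 to 1 members and 1 to 8 pathway genes were called in sedentary mice, and 1 to 2 and 5 to 14 in trained mice. Between labelled genotypes the signs that turned were those of Atp2a2 (-0.48 to 0.22) and Sln (-0.42 to 0.52) in sedentary mice and Ryr1 (-0.016 to 0.14), Atp2a2 (-0.48 to 0.62) and Sln (-0.26 to 0.080) in trained mice. For training in labelled WT mice they were Cacna1s (-0.090 to 0.015), Trdn (-0.043 to 0.25), Casq2 (-0.048 to 0.27), Atp2a1 (-0.027 to 0.052), Atp2a2 (-0.53 to 0.61), Sln (-0.24 to 0.099) and Pvalb (-0.17 to 0.027). In labelled strNrip1-/- mice they were Trdn (-0.058 to 0.42), Atp2a2 (-0.048 to 0.57) and Sln (-0.68 to 0.26). For the interaction they were Trdn (-0.13 to 0.34), Jph1 (-0.077 to 0.067), Casq2 (-0.053 to 0.42), Atp2a2 (-0.33 to 0.81) and Sln (-0.61 to 0.33).

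The sample labels do not say that replicate numbers pair the samples. Deviations of same-numbered libraries correlated at -0.11 to 0.24, with a median of -0.0095 and 5 of 18 above 0.1. Those of differently numbered libraries correlated at -0.25 to 0.20, with a median of -0.0025 and 3 of 36 above 0.1. With the replicate block the count of members called stayed at 1 in both comparisons between labelled genotypes. That of pathway genes was 7 in sedentary and 11 in trained mice. The calls of Calm2 in both, of Cacnb1 and Stim1 in sedentary mice and of Slc8b1 in trained mice were lost. The 7 in sedentary mice therefore include genes that were not called without the block. Groups of 3 libraries limit what can be called, and Sln rests on few fragments.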
